A study of Mus musculus with 2 samples.

Results

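The cells described here are resting basophil-lineage cells with little Prss34 RNA, taken from mouse bone marrow cells sorted as positive for E-cadherin and for cKIT. They were 491 of the 6632 cells of the cKIT+ library, or 7.40%, and of the 10377 cells in both libraries. A cell was included when it held at least 2000 UMIs, the unique molecular identifiers that count RNA molecules, and when the basophil genes Mcpt8, Fcer1a, Ms4a2 and Cd200r3 gave at least 0.5% of them. Cd79a, C1qa, Prg2 and Gzmb, genes of B cells, macrophages, eosinophils and mast cells, had to stay under 3 UMIs each, and the neutrophil granule genes Elane and Prtn3 under 0.5% together. The proliferation genes Mki67 and Top2a were limited to 1 UMI together, which is all that "resting" means here, and Prss34 to under 1%. The cells were thus chosen by measured levels of 13 genes, so the levels of those genes are given only as a description.

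The study set 1 library of E-cadherin+cKIT+ cells beside 1 library of E-cadherin+cKIT- cells. The sample labels give the mice as FVB, and the paper describes wild-type mice and mice carrying Vav-iCre;mTmG, a recombinase driven by the Vav promoter in blood cells together with a fluorescent reporter. No treatment, age or knockout separates the libraries, and the files do not tell the animals behind a library apart. With 1 library per condition there was no replicate, so no p-value is given, and every interval is a 95% interval for counting error only. The 491 cells are not replicates of each other.

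The same gates gave 3 groups for comparison, each set against the same 491 cells. In the cKIT+ library, 598 resting cells held at least 1% Prss34 (Prss34-high resting cells), and 564 cells low in Prss34 held 2 or more UMIs of Mki67 and Top2a (cycling cells). In the cKIT- library, 830 cells met every gate of the 491. The median depth was 10731 UMIs in the Prss34-low resting cKIT+ cells, 10888 in the Prss34-high resting cells, 18200 in the cycling cells and 3253 in the cKIT- cells. The libraries shared 10 cell barcodes, and none belonged to the 491 cells. Levels are in CPM: the UMIs of a gene summed over the cells of a group and scaled to the summed UMIs of the same cells.

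Basophils are granulocytes that arise in the bone marrow from progenitors shared with mast cells and other myeloid cells. As they differentiate they load granules with proteases such as mouse mast cell protease 8 (Mcpt8) and the tryptase-like Prss34, display the high-affinity IgE receptor, and lose the stem cell factor receptor cKIT. GATA, RUNX, C/EBP and STAT5 factors are known regulators of this branch, and neutrophil primary granule genes such as Mpo are known to be transcribed in the myeloid progenitors before it.

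Bases just upstream of 5 genes the results turn on are shown to place these factors' motifs beside the genes: the granule protease genes Mcpt8, Prss34 and Cpa3, and Sox4 and Apoe, whose RNA was higher in the Prss34-low cells. Each window holds the 150 bases before the outermost annotated start on the strand of the gene, from RefSeq, build GRCm38.p6. Capitals mark matches, on either strand, to letters that GATA factors are known to bind, GATAA, and to those of RUNX factors, TGTGGT. C/EBP letters (TTGCNNAA) and STAT letters (TTCNNNGAA) were searched in the same way. The windows lie at chr14:56085274-56085423 (Mcpt8, minus strand), chr17:25298244-25298393 (Prss34, plus strand), chr3:20242182-20242331 (Cpa3, minus strand), chr13:28953714-28953863 (Sox4, minus strand) and chr7:19699189-19699338 (Apoe, minus strand).
Mcpt8: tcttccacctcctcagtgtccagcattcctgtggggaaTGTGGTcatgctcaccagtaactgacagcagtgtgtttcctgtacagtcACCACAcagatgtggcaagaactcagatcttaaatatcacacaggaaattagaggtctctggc
Prss34: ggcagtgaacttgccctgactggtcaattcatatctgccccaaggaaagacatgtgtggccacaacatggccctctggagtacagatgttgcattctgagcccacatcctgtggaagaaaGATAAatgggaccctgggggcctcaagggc
Cpa3: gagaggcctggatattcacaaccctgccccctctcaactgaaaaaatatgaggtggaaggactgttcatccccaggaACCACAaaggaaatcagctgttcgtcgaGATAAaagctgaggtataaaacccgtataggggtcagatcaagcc
Sox4: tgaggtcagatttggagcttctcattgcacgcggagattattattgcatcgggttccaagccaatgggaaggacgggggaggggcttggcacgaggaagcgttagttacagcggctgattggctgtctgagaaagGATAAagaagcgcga
Apoe: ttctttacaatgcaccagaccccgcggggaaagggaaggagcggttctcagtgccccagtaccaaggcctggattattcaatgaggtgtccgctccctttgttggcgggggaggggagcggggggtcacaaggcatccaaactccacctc

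GATAA was found in the Prss34, Cpa3 and Sox4 windows, and the RUNX letters in the Mcpt8 and Cpa3 windows. Among windows of the same length before 27025 RefSeq gene starts, 13.6% held GATAA, 8.51% the RUNX letters, 5.48% the C/EBP letters and 4.14% the STAT letters. None of the matches overlapped another. The Apoe window held no match. A match describes these letters in this window and is not a measured binding site.

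The 6 genes that mark the cells were all detected, and 4 of them stood higher than in Prss34-high resting cells of the same library, with intervals that do not overlap 1. Apoe (apolipoprotein E, a lipid carrier; chr7:19696109-19699188) stood at 1485 CPM (1452 to 1518) against 959.7 (936.0 to 983.7), a ratio of 1.55 (1.50 to 1.60). Sox4, a transcription factor gene of progenitor cells (chr13:28948919-28953713), stood at 232.6 CPM against 144.8, a ratio of 1.61 (1.47 to 1.75). Tmem176b, which encodes a membrane protein (chr6:48833818-48841496), stood at 132.1 CPM against 74.5, a ratio of 1.77 (1.58 to 1.99). Lmo4, a LIM-domain adaptor of transcription complexes (chr3:144188530-144205220), stood at 1350 CPM against 867.3, a ratio of 1.56 (1.50 to 1.61). All 4 lay below a 2-fold difference, and their ratios kept their direction under each processing alternative run, with Tmem176b past 2-fold, at 2.07, with cells drawn down to 2000 UMIs.

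Mpo, the gene of myeloperoxidase (chr11:87793581-87804413), did not follow the other markers. It stood at 3292 CPM (3243 to 3342) in the Prss34-low resting cells and at 3568 CPM (3522 to 3614) in the Prss34-high resting cells, a ratio of 0.92 (0.90 to 0.94) in the opposite direction. Mcpt8 (chr14:56082166-56085273), a gene the gate used, was the most abundant gene of the cells apart from mitochondrial and ribosomal protein genes, at 12850 CPM, and stood at 23540 CPM in the Prss34-high cells. Prss34 itself (chr17:25298394-25300165) stood at 3452 CPM against 26270, as the rule requires.

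**Figure D1:**
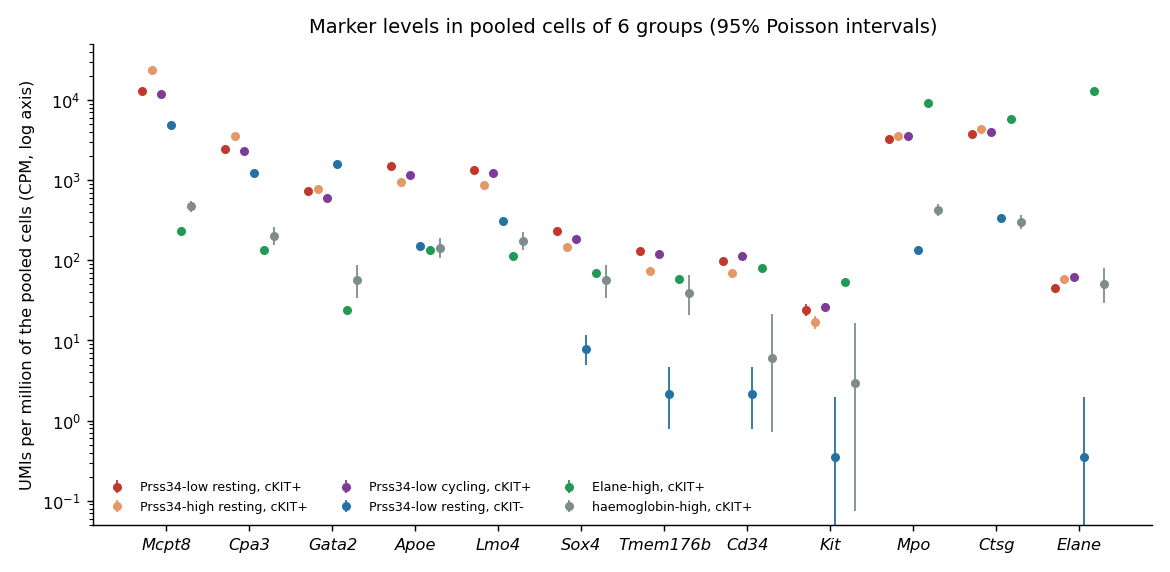
Pooled level of each gene in CPM (log axis) in 6 groups of cells, with 95% Poisson intervals as bars, which are smaller than the points for abundant genes. The Prss34-low resting cKIT+ cells (red) held Apoe at 1485 CPM, Mpo at 3292 and Kit at 24.3, while the Prss34-low resting cKIT- cells (blue) held 151.6, 136.3 and 0.356.

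Single cells carried the same genes. The middle 50% of the 491 cells held 785.8 to 1966 CPM of Apoe, with a median of 1343, and 854.7 to 1745 CPM of Lmo4, with a median of 1245. After each cell was drawn down to 2000 UMIs, 84.7% of the cells (81.2 to 87.8) held a UMI of Apoe, 88.0% of Lmo4, 91.2% of Mpo, 31.6% of Sox4 and 22.0% of Tmem176b. Without that step the shares were 94.5%, 98.4%, 94.5%, 76.8% and 61.1%. In 47 haemoglobin-high cells of the same library, which should lack basophil genes and had a median of 4841 UMIs, the shares at 2000 UMIs were 10.6%, 10.6%, 23.4%, 4.26% and 2.13%. The 11 erythroid markers took 435791 CPM in these cells, which left fewer UMIs for all other genes. At 2000 UMIs their median was 364 genes, against 942 in the 491 cells. Their shares and CPM, here and below, may therefore understate the background. Mcpt8 and Prss34 were found in 34.0% and 40.4% of those haemoglobin-high cells, against 100% and 77.4% of the 491 cells. Both are gate genes, and the source of this RNA in the haemoglobin-high cells was not tested.

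Of the 15 basophil identity genes, 9 could be compared with the Prss34-high cells. Grm6 (10.4 against 26.4 CPM) and Cd200r4 (14.8 against 44.5) were past 2-fold lower in the Prss34-low cells, beside 0.427% of all 5384 genes tested. Both reached the 20 CPM needed for testing only in the Prss34-high cells, so their direction was fixed and they are a description only. Gata2, a transcription factor of the basophil and mast cell branch, stood at 731.3 CPM against 772.4 in the Prss34-high cells and 601.6 in the cycling cells. Cpa3, the gene of the granule carboxypeptidase A3 (chr3:20215620-20242181), stood at 2466 CPM and was 1.43-fold higher in the Prss34-high cells (1.40 to 1.46). Ms4a2, the beta chain of the IgE receptor and a gate gene, stood at 1380 CPM against 1401, whereas Fcer1a, its alpha chain and also a gate gene, stood at 276.6 CPM against 746.5. Fcer1a was the more uneven of the pair, with a UMI in 310 of the 491 cells against 491 for Ms4a2.

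Neutrophil primary granule genes were split. Mpo, Ctsg (cathepsin G, 3779 CPM) and Ms4a3 (969.3 CPM) were abundant, and the comparison group for them was 588 Elane-high cells of the cKIT+ library with few basophil transcripts, which held 9168, 5807 and 2086 CPM. Elane (neutrophil elastase) stood at 44.6 CPM (39.1 to 50.7) in the Prss34-low resting cells, at 12952 CPM in the Elane-high cells and at 50.7 CPM (29.5 to 81.2) in the haemoglobin-high cells. The haemoglobin-high cells also held 17204 CPM of the 9 late neutrophil markers, so they are no clean background for neutrophil genes. Prtn3 (proteinase 3) stood at 180.3 CPM (169 to 192), above the 53.7 CPM of the haemoglobin-high cells, and Fcnb had 3 UMIs in all. Elane and Prtn3 are gate genes, and the Elane-high cells were chosen by them, so these levels are a description only. Cebpe, a factor of late granulocytes, stood at 5.51 CPM against 358.9 in the Elane-high cells.

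Early progenitor genes were detected in part. Kit, which encodes cKIT, stood at 24.3 CPM (20.3 to 28.9) against 16.9 in the Prss34-high cells, a ratio of 1.44 (1.11 to 1.88), and at 2.98 CPM (0.0755 to 16.6) in the haemoglobin-high cells. At 2000 UMIs, 23 of 491 cells (4.68%) held a Kit UMI and 0 of 47 haemoglobin-high cells did, which allows a share of up to 6.38% there (3 counts of 47), so the share alone did not separate Kit from background at this depth. Cd34, a sialomucin of progenitors, stood at 97.4 CPM against 70.2 in the Prss34-high cells, a ratio of 1.39 (1.22 to 1.58), and Myb, a transcription factor gene of progenitors, at 265.0 against 213.2. In the early progenitor list, 3 of 20 genes were under 5 CPM. Flt3 had 1 UMI and Mycn 0 of 5267545 UMIs, where 3 UMIs would be 0.570 CPM, while Hlf stood at 5.51 CPM. Of the 20 early progenitor genes, 13 were abundant enough to compare with the Prss34-high cells. Among these 13, 11 were on the higher side, as were 3507 of all 5384 genes tested, and 0 passed 2-fold. Their median log2 ratio was 0.31 beside 0.07 for all genes tested. Cdh1, which encodes the sorted E-cadherin, stood at 108.6 CPM, against 129.1 in the Prss34-high cells and 68.5 in the cycling cells. The first ratio, 0.84, turned to 1.07 with cells drawn down to 2000 UMIs.

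Markers of other blood cells are given as summed levels. The mast cell, macrophage, eosinophil and B cell lists each hold a gate gene, Gzmb (2.85 CPM), C1qa (1.71), Prg2 (5.70) and Cd79a (0.380), and the gates removed cells with 3 or more UMIs of these, so low sums of those lists are in part fixed by the choice of cells. The 8 mast cell markers summed to 9.87 CPM, with Cma1 the highest at 6.83 CPM and Mcpt2, Mcpt4, Tpsb2, Tpsab1 and Mrgprb2 at 0. The 8 macrophage markers summed to 12.1 CPM, the 7 eosinophil markers to 41.8 CPM, the 8 B cell markers to 45.2 CPM, the 11 erythroid markers to 54.3 CPM and the 10 monocyte and dendritic cell markers to 61.3 CPM. The 9 late neutrophil markers summed to 1882 CPM, against 3206 in the Prss34-high cells, 4974 in the cycling cells, 225.2 in the cKIT- cells and 17204 in the haemoglobin-high cells, with S100a9 the most abundant at 773.6 CPM. A few cells carried these levels: S100a8 and S100a9 gave at least 0.5% of the UMIs in 5 of the 491 cells, 6 of the Prss34-high cells, 10 of the cycling cells and 1 of the cKIT- cells, and the 5 held 90.7% of the S100a9 UMIs of the 491 cells. Itga2b gave 164.4 of the 167.8 CPM of the megakaryocyte list and Nkg7 gave 843.5 of the 974.8 CPM of the T and NK cell list. Ppbp, Gp1bb and Treml1 of the former and Ncr1, Klrb1c and Gzma of the latter were at 0.

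The comparison with Prss34-high resting cells addressed what, beyond Prss34, differs within the resting cells of one library. Of 5384 genes with at least 20 CPM in either group, the gate genes left out, 5 were higher in the Prss34-low cells (0.0929%) and 23 were lower (0.427%). With the same weight for every cell the split was 9 and 14, and with cells drawn down to 2000 UMIs it turned to 70 higher and 51 lower. The 5 higher genes were Ctla2a, Cisd1, Gng11, BC035044 and AC153891.1, all between 20 and 30 CPM and named because there were so few. Among genes with at least 50 CPM, the largest ratios belonged to Tmem176b, Ifngr1, Khk, Psat1, St8sia6, Itga4, Gm17590, Sox4, Tmem176a and Lmo4. Ifngr1, a chain of the interferon gamma receptor, stood at 134.2 CPM against 76.1 (ratio 1.76, 1.57 to 1.98), and Itga4, the alpha 4 integrin chain, at 98.5 against 58.3 (ratio 1.69, 1.48 to 1.93). Tmem176a and Tmem176b overlap in the genome (chr6:48840919-48847071 and chr6:48833818-48841496, on opposite strands), with ratios of 1.58 and 1.77.

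The 10 leading genes on the lower side, among those with at least 50 CPM, were of mixed kinds. Igfbp7, a secreted binding protein, was 2.99-fold higher in the Prss34-high cells (142.5 against 47.7 CPM, 2.60 to 3.45). Alox15, the gene of 15-lipoxygenase, was 2.79-fold higher there (2.37 to 3.31), and Prss28, a tryptase-like protease, 2.79-fold (2.27 to 3.44). Gsn, the actin-severing gelsolin, was 2.05-fold higher in the Prss34-high cells. Sdf2l1, Tpd52l1, Chil3, Ngp, Lcn2 and Camp were the other leading genes. Of the last 4, between 62.2% and 88.7% of the UMIs in the 491 cells came from the 5 cells richest in each. Chil3, at 14.0 CPM in the 491 cells, was tested only through the Prss34-high cells, so its direction was fixed.

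All 18 genes of protein folding and export in the endoplasmic reticulum lay on the lower side, whereas 3507 of the 5384 genes tested lay on the higher side. Their median log2 ratio was -0.58, beside 0.07 over all genes tested, and 1 of them, Sdf2l1, passed 2-fold (113.1 against 235.0 CPM). Hspa5, the chaperone BiP, stood at 427.1 CPM against 673.6, and was 1.58-fold higher in the Prss34-high cells (1.50 to 1.66). Pdia6, a disulfide isomerase, was 1.58-fold higher there (1.51 to 1.66), and Calr, the chaperone calreticulin, 1.27-fold (1.24 to 1.30). The 28 transcription factors had a median log2 ratio of 0.03 over 18 tested genes, the 22 receptors -0.09 over 11 and the 17 mediator genes -0.05 over 10. None of these 3 lists had a gene past 2-fold, which is near the 0.52% of all genes tested.

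**Figure D2:**
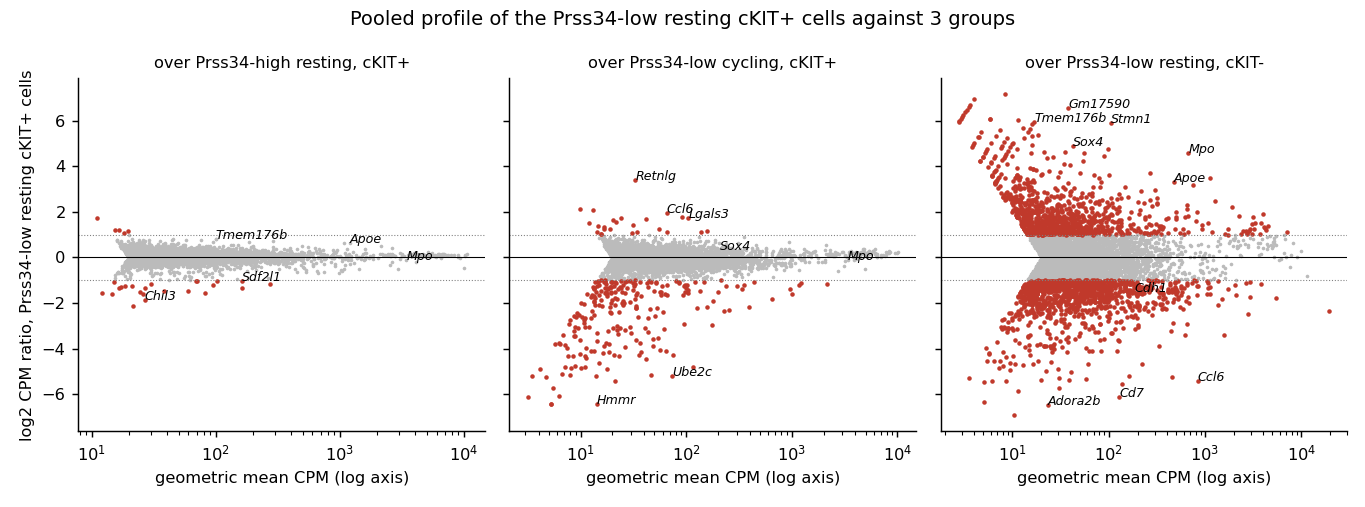
Each point is a gene with at least 20 CPM in either group: geometric mean CPM (log axis) against the log2 CPM ratio of the Prss34-low resting cKIT+ cells over the group named above each panel, with genes past 2-fold in red and genes at 0 in one group not drawn. Red genes were 0.52% of those tested against the Prss34-high cells, 4.61% against the cycling cells and 34.7% against the cKIT- cells.

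The 491 cells also varied with their own Prss34 share. That share is a value the rule used, Mcpt8 is another gate gene and the genes shown were taken from the comparison above, so what follows is a description. The cells were divided by their Prss34 share into 34 cells with 0 UMIs, 129 up to 0.1%, 99 from 0.1 to 0.3%, 113 from 0.3 to 0.6% and 116 from 0.6 to 1%. The first class was the shallowest, with a median of 7221 UMIs against 10746 to 10988 in the others. Mcpt8 stood at 7425, 10553, 12545, 14046 and 15471 CPM in that order, and Mpo at 1912, 2882, 3136, 3660 and 3772. The chaperone genes increased in the same order, Hspa5 from 284.3 to 592.2 CPM and Pdia6 from 366.7 to 632.9. Sdf2l1 went from 49.4 to 154.5 CPM. In the opposite direction, Sox4 went from 288.4 to 206.3 CPM, Lmo4 from 1545 to 1113, Ifngr1 from 168.9 to 99.6 and Cd34 from 111.2 to 74.5, though Lmo4 and Cd34 were at their highest in the class up to 0.1%. Apoe was nearly level, at 1487 CPM in the first class and 1391 in the last, and Gata2 showed no order (828.2 and 680.0). Tmem176b had its highest level in the middle class, at 148.6 CPM. Of the 34 cells in the first class, 13 were rich in chemokine RNA. With all 31 cells rich in chemokine RNA or in S100a8 and S100a9 left out, Apoe stood at 1772 CPM in the first class and 1403 in the last, Lmo4 at 1772 and 1105, Sox4 at 343.6 and 208.6, and Mcpt8 at 8025 and 15508.

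**Figure D3:**
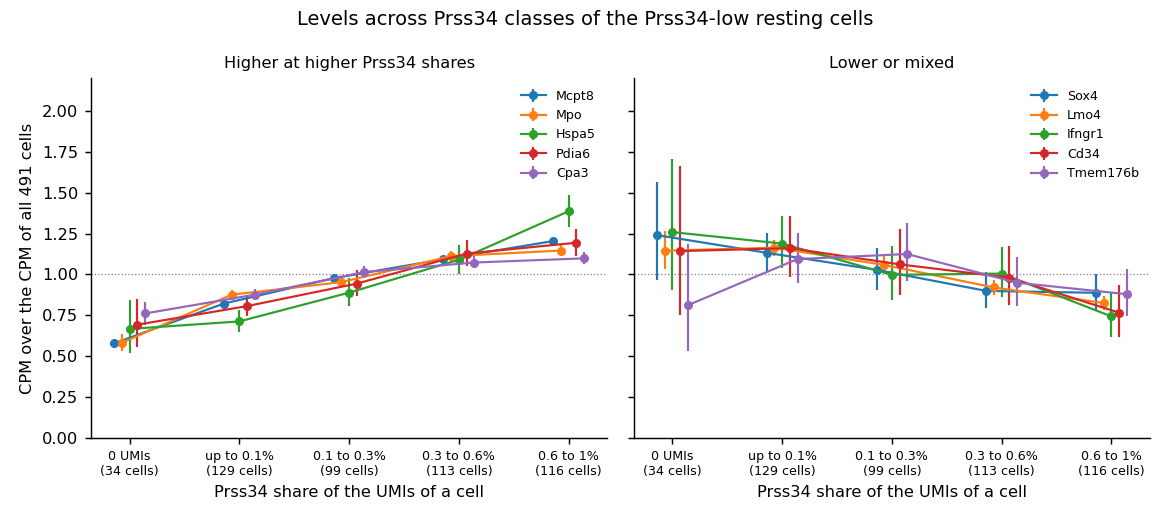
Pooled CPM in each of the 5 Prss34 classes of the 491 cells, divided by the CPM of all 491 cells, with 95% Poisson intervals as bars; the horizontal axis gives the share of Prss34 and the number of cells. Mcpt8, Mpo, Hspa5, Pdia6 and Cpa3 (left) lay below 1 in the class with 0 UMIs and above 1 in the last, while Sox4, Lmo4, Ifngr1 and Cd34 (right) lay above 1 in the first and below 1 in the last.

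Genes differed in what they showed at the Prss34 limit. The 52 cells with 0.8 to 1% Prss34 held 16142 CPM of Mcpt8 (15819 to 16471) and 3644 of Mpo (3491 to 3802), and the 55 cells nearest outside held 18028 (17686 to 18374) and 4215 (4051 to 4384). Sox4 stood at 213.3 and 247.6 CPM and Lmo4 at 1074 and 1034 on the 2 sides, with overlapping intervals. Apoe stood at 1452 CPM (1356 to 1553) inside and 1087 (1004 to 1174) outside, so the intervals of Apoe, Mcpt8 and Mpo do not overlap between the sides. Likewise 39 cells lay just inside the limit on basophil genes (0.5 to 0.6%) and 48 just outside (0.4 to 0.5%), and 133 cells held 1 UMI of Mki67 and Top2a.

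A few of the 491 cells differed from the rest, and these subsets were chosen after their values were seen. In 26 cells, the chemokine genes Ccl3, Ccl4 and Ccl6 gave at least 0.3% of the UMIs. These cells were shallow, with a median of 3044.5 UMIs, and 13 of them were among the 34 cells without Prss34. Sox4, Tmem176b and Cd34 were at 0 of their 86699 UMIs, with an upper limit of 42.5 CPM, against 237.7, 134.9 and 99.5 CPM in the 460 cells outside this and the next subset. Kit was also at 0, which at this depth does not set the cells apart from the 24.6 CPM of those 460. Apoe stood at 126.9 CPM and Mpo at 138.4, while Cd7 stood at 772.8 CPM, Lilr4b at 945.8, Il7r at 265.3 and Cdh1 at 461.4. The 830 cKIT- cells held 151.6 CPM of Apoe, 136.3 of Mpo, 1073 of Cd7, 939.0 of Lilr4b, 252.3 of Il7r and 309.9 of Cdh1, and 90.7% of them were past the same chemokine limit, against 5.30% of the 491 cells (3.49 to 7.66), 1.67% of the Prss34-high cells and 0.177% of the cycling cells. In 5 other cells, the next subset, S100a8 and S100a9, alarmin genes of neutrophils, gave 7.61 to 14.5% of the UMIs, where no other of the 491 cells exceeded 0.110%. These 5 cells held 89.7% of all S100a8 UMIs, 90.7% of S100a9, 85.4% of Camp and 97.7% of Retnlg, at a median depth of 10350 UMIs, and still held 19959 CPM of Mcpt8. Whether they were 2 cells in one droplet was not tested.

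**Figure D4:**
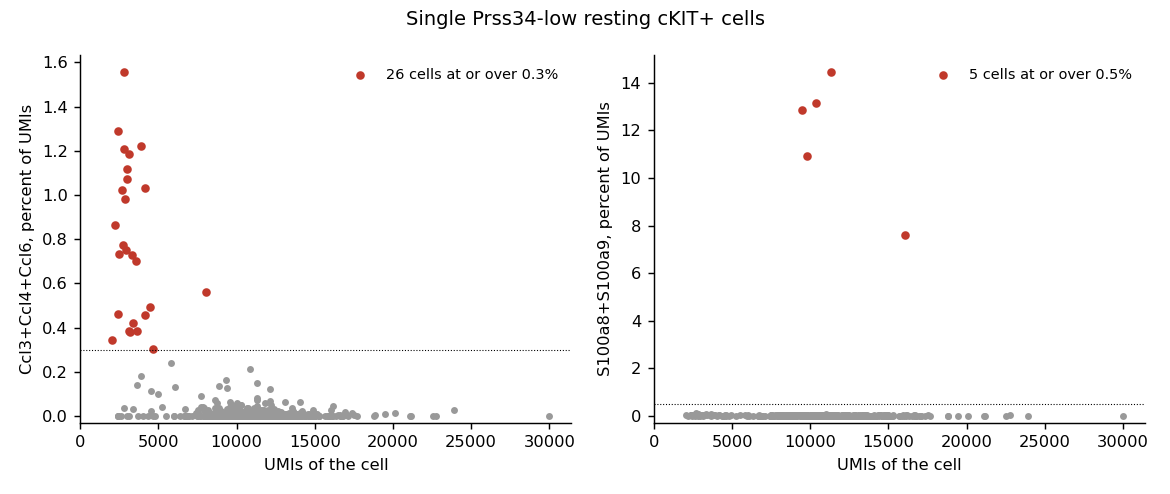
Each point is one of the 491 cells: its UMIs against the percentage of them from Ccl3, Ccl4 and Ccl6 (left) or from S100a8 and S100a9 (right), with dotted lines at 0.3% and 0.5%. The 26 chemokine-high cells (red, left) had 2045 to 8030 UMIs, and the 5 cells high in S100a8 and S100a9 (red, right) lay apart from all others.

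The other 460 cells were close to the whole, with Apoe at 1515 CPM, Sox4 at 237.7, Lmo4 at 1365, Tmem176b at 134.9 and Mpo at 3343. In these 460 cells Ccl6 stood at 54.3 CPM and S100a9 at 71.0. With the 31 cells left out, the number of genes lower than in the Prss34-high cells was 40 in place of 23 (the 5 higher became 6), S100a8 stood at 61.3 CPM and Camp at 26.3. Over the single cells drawn down to 2000 UMIs, 2602 genes with a mean of at least 0.1 UMIs had a median variance-to-mean ratio of 1.03, where counting alone gives about 1 and drawing down itself brings the ratio closer to 1. Outside the 31 cells, Mcpt8 and Prss34 were the most uneven genes by that ratio, and both are genes of the gate.

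Against the cycling cells of the same library, the comparison asked what accompanies Mki67 and Top2a. Of 5641 genes tested, 25 were at least 2-fold higher in the resting cells (0.443%) and 235 lower (4.17%). With the 31 cells left out of the 491 only, and the cycling cells unchanged, 12 were higher. All 18 genes of the G2 and mitosis list were past 2-fold lower. Only 4 of the 18 were abundant enough to test against the Prss34-high cells. The others, Hmmr and Ube2c among them, were below the limit for testing in the resting cells. They were tested here only through the cycling cells, so their direction was fixed and they are a description only. Hmmr, a mitotic spindle gene, stood at 1.52 CPM against 132.3, and Ube2c, a ubiquitin carrier of mitotic exit, at 12.1 against 453.7. Of the 18 S phase genes only Tyms, Rrm1, Rrm2, Cdc6 and Clspn passed 2-fold, while Mcm3, a subunit of the replicative helicase, stood at 141.6 CPM against 176.0. Rrm2, Cdc6 and Clspn were under 20 CPM in the resting cells. They too were tested only through the cycling cells, so their direction was fixed. In 24.4% of the 491 cells the S phase list gave more than 0.2% of the UMIs, against 35.5% of the Prss34-high cells, 57.8% of the cycling cells and 0.241% of the cKIT- cells, so cells with replication genes were present among those that the gate calls resting.

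No early progenitor gene, basophil identity gene or transcription factor of the branch passed 2-fold against the cycling cells, of 13, 7 and 16 tested. Over all genes tested 4.61% passed 2-fold either way, so 0 in lists this short is near the overall share. Mpo stood at 3292 CPM against 3532, Ctsg at 3779 against 4035, Cd34 at 97.4 against 112.3 and Kit at 24.3 against 26.0, the last with a ratio whose interval includes 1 (0.75 to 1.16) and which turned to 1.10 with cells drawn down to 2000 UMIs. Of the markers of the cells, Sox4 had a ratio of 1.24 (1.16 to 1.34), Lmo4 of 1.10 (1.07 to 1.13) and Tmem176b of 1.09 (0.99 to 1.19), the last with an interval that includes 1. Apoe was 1.28-fold higher in the resting cells (1.24 to 1.32), Cdh1 1.59-fold (1.42 to 1.77) and Cebpa, a C/EBP factor, 1.55-fold (1.46 to 1.64). All 13 adhesion genes tested lay on the higher side, as did 2457 of the 5641 genes tested, and 0 of them passed 2-fold. Their median log2 ratio was 0.26 beside -0.05 over all genes. Lgals3 (galectin 3, 191.2 against 57.9 CPM), Ltb (lymphotoxin beta, 170.9 against 49.4) and Txnip (a thioredoxin inhibitor, 237.5 against 104.9) were past 2-fold higher. All 10 mediator genes tested lay on the higher side, as did 2457 of the 5641 genes tested, with a median log2 ratio of 0.75. Ccl3, Ccl4 and Ccl6 passed 2-fold, as did 0.443% of all genes tested on the higher side. Of these 3 genes the 26 chemokine-high cells held 171 of 391, 91 of 142 and 393 of 677 UMIs. In the 460 cells outside the chemokine-high and S100-high subsets they stood at 41.4, 9.95 and 54.3 CPM against 23.2, 6.46 and 33.4 in the cycling cells, so none of the 3 was past 2-fold there. Ccl4 was under 20 CPM in the cycling cells, so its direction among the genes tested was fixed. Retnlg, a late neutrophil gene, had the largest ratio at 107.3 against 10.2 CPM, and 97.7% of its UMIs came from 5 cells. Of the 8 late neutrophil markers tested, Retnlg and Mmp8 were past 2-fold higher and the other 6 past 2-fold lower. Retnlg and Mmp8 were under 20 CPM in the cycling cells, so their direction was fixed. Over all genes tested, 0.443% were higher and 4.17% lower. The median log2 ratio of the 8 markers was -1.38. The haemoglobin genes Hba-a1, Hbb-bs and Hbb-bt and the antigen-presentation gene Cd74 were past 2-fold lower than in the cycling cells, where the 11 erythroid markers summed to 406.5 CPM and the 10 monocyte and dendritic cell markers to 108.8. The part of such RNA in these differences was not tested. Hba-a1, Hbb-bs, Hbb-bt and Cd74 were under 20 CPM in the resting cells. They were tested only through the cycling cells, so their direction was fixed and they are a description only.

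The comparison with the cKIT- cells that met the same gates addressed how cells with little Prss34 differ on the 2 sides of the cKIT sort. Here the sort and the library cannot be told apart. The groups were unlike over much of the transcriptome: of 6034 genes tested, 963 were past 2-fold higher in the cKIT+ cells (16.0%) and 1133 lower (18.8%). All 5 marker genes of the label that the gates did not use were among the higher. Mpo stood at 3292 against 136.3 CPM, a ratio of 24.2 (21.8 to 26.8), Ctsg at 3779 against 335.5, and Apoe at 1485 against 151.6, a ratio of 9.80 (8.88 to 10.8). Sox4 stood at 232.6 against 7.83 CPM, a ratio of 29.7 (19.5 to 47.6), and Tmem176b at 132.1 against 2.13, a ratio of 61.9 (28.3 to 169). Cd34 had 513 UMIs against 6, and Kit 128 against 1, a ratio of 68.3 with an interval from 12.0 to 2718. Sox4, Tmem176b, Cd34 and Kit were under 20 CPM in the cKIT- cells. They were tested only through the cKIT+ cells, so their direction was fixed and they are a description only.

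The size of these ratios moved with the processing. Among the cKIT- cells, 3 cells held 50.7% of the Mpo UMIs. With at least 4000 UMIs required of every cell in both groups, the ratio of Mpo was 7.82, of Apoe 5.06, of Sox4 11.3 of Tmem176b 18.0, of Cd34 22.0 and of Kit 16.6. With the deepest 10% of cells of each group left out, Mpo stood 64.5-fold and Sox4 55.9-fold higher. With all cells drawn down to 2000 UMIs, the ratio of Mpo was 38.0 and that of Sox4 52.9. Over all alternatives run, Tmem176b went from 18.0 to 171.6, Cd34 from 22.0 to 125.6 and Kit from 16.6 to 135.4, and 2 further alternatives left Kit at 0 in the cKIT- cells. The direction was the same each time. The cKIT- cells were shallower, and the part of depth in these ratios was not tested further.

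Early progenitor and S phase genes were mostly higher in the cKIT+ cells, whereas the G2 and mitosis list was not. Over all genes tested in this comparison, 16.0% were past 2-fold higher and 18.8% lower. In the neutrophil primary granule list 8 of 12 tested genes were past 2-fold higher and 1, Igsf6, lower. Of the 13 early progenitor genes tested, 8 were past 2-fold higher and 0 lower, Myb among them at 265.0 against 23.5 CPM and Hoxa9 at 20.5 against 0.712. Of the 15 S phase genes tested, 14 were past 2-fold higher and 0 lower, with Mcm3 at 141.6 against 8.18 CPM. Both counts include genes under 20 CPM in the cKIT- cells, such as Mcm3, Hoxa9, Cd34 and Kit. Such genes were tested only through the cKIT+ cells, so their direction was fixed and they are a description only. The 18 G2 and mitosis genes summed to 842.1 CPM against 1183 in the cKIT- cells. They gave more than 0.2% of the UMIs in 4.07% of the cKIT+ cells against 14.0%. The gate of 1 UMI of Mki67 and Top2a allows a larger share in the shallower cKIT- cells (median 3253 UMIs against 10731), and the part of this in the difference was not tested. Of the 4 genes tested, 1 was past 2-fold higher in the cKIT+ cells, near the overall share. Hmgb2, a chromatin protein gene, gave 580.9 and 1034 CPM of the 2 sums. Stmn1, a microtubule destabilizer, stood at 820.7 against 13.9 CPM. In the endoplasmic reticulum list 9 of 18 were past 2-fold higher and 0 lower, Calr at 2239 against 247.3 CPM and Pdia6 at 530.2 against 101.4. Camp had 969 UMIs against 0, and Ngp 532 against 2, mostly from the 5 cells high in S100a8 and S100a9. Stmn1, Camp and Ngp were likewise tested only through the cKIT+ cells.

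Mediator genes were mostly higher in the cKIT- cells. Of the 11 mediator genes tested, 9 were past 2-fold lower in the cKIT+ cells and 0 higher. Ccl6, a chemokine, was 42.5-fold higher in the cKIT- cells (5467 against 128.5 CPM, 39.4 to 46.0), and Ccl9 10.7-fold (10.3 to 11.2). In the cKIT+ cells, the 26 chemokine-high cells held 393 of 677 Ccl6 UMIs, 23 of 32 of Il7r and 9 of 13 of Adora2b, and the 460 cells outside the chemokine-high and S100-high subsets stood at 54.3, 1.56 and 0.585 CPM. Alox5ap, which serves leukotriene synthesis, was 4.19-fold higher in the cKIT- cells (4.03 to 4.37), Hdc, the enzyme that makes histamine, 2.77-fold (2.60 to 2.95), and Il4, a type 2 cytokine, 14.7-fold (10.1 to 22.1). Il4 was under 20 CPM in the cKIT+ cells and was tested only through the cKIT- cells, so its direction was fixed. Of the 14 cytokine and growth factor receptors tested, 7 were past 2-fold lower and 2, Kit and Ifngr1, higher, beside 18.8% lower and 16.0% higher over all genes tested. Il7r stood at 6.07 against 252.3 CPM and Il18rap at 69.1 against 581.4, and Csf2rb, the beta chain shared by the IL-3 and GM-CSF receptors, at 282.1 against 764.3. Il7r in the cKIT+ cells and Kit in the cKIT- cells were under 20 CPM, so their direction was fixed. Of the 8 chemoattractant receptors tested, 7 were past 2-fold lower. Only 4 genes of this list were abundant enough to test against the Prss34-high cells. The others tested here, C5ar1 among them, were below the limit for testing in the cKIT+ cells, as was Adora2b, a leading gene outside this list. All of these were tested only through the cKIT- cells, so their direction was fixed and they are a description only. C5ar1, the receptor for complement C5a, stood at 1.52 against 87.5 CPM and Adora2b, an adenosine receptor, at 2.47 against 218.1. Cxcr4, the receptor for the marrow chemokine CXCL12, went the other way at 170.7 against 31.3 CPM.

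Of the 19 transcription factors tested, 10 were past 2-fold lower in the cKIT+ cells and 1, Lmo4, higher. Over all genes tested in this comparison, 18.8% were past 2-fold lower and 16.0% higher, the shares to read beside each list here. Gata2 was 2.17-fold higher in the cKIT- cells (1590 against 731.3 CPM, 2.08 to 2.27), Cebpa 2.52-fold (2.38 to 2.67) and Spi1, the gene of PU.1, 2.56-fold (2.35 to 2.79). Runx1 stood at 412.9 against 425.5 CPM, and Gata1 at 30.4 against 36.6. In the adhesion list 10 of 14 were past 2-fold lower and 1, Itga4, higher, beside the same 18.8% and 16.0%. Cdh1 was 2.85-fold higher in the cKIT- cells (309.9 against 108.6 CPM, 2.57 to 3.18), Itgb7 4.95-fold (4.42 to 5.56) and Itga2b 2.71-fold (2.48 to 2.96). Itga4 stood at 98.5 against 12.5 CPM and was tested only through the cKIT+ cells, so its direction was fixed. Cpa3 was 2.01-fold higher in the cKIT+ cells (1.93 to 2.08), whereas 7 of the 10 basophil identity genes tested were past 2-fold lower, Fcer1g, Hdc, Gata2, Cyp11a1, Grm6, Cd200r4 and Ccr3. Grm6, Cd200r4 and Ccr3 were under 20 CPM in the cKIT+ cells. They were tested only through the cKIT- cells, so their direction was fixed and they are a description only. With at least 4000 UMIs per cell Cpa3 went to 1.42 and Gata2 to a cKIT+ over cKIT- ratio of 0.51, so neither was past 2-fold.

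**Figure D5:**
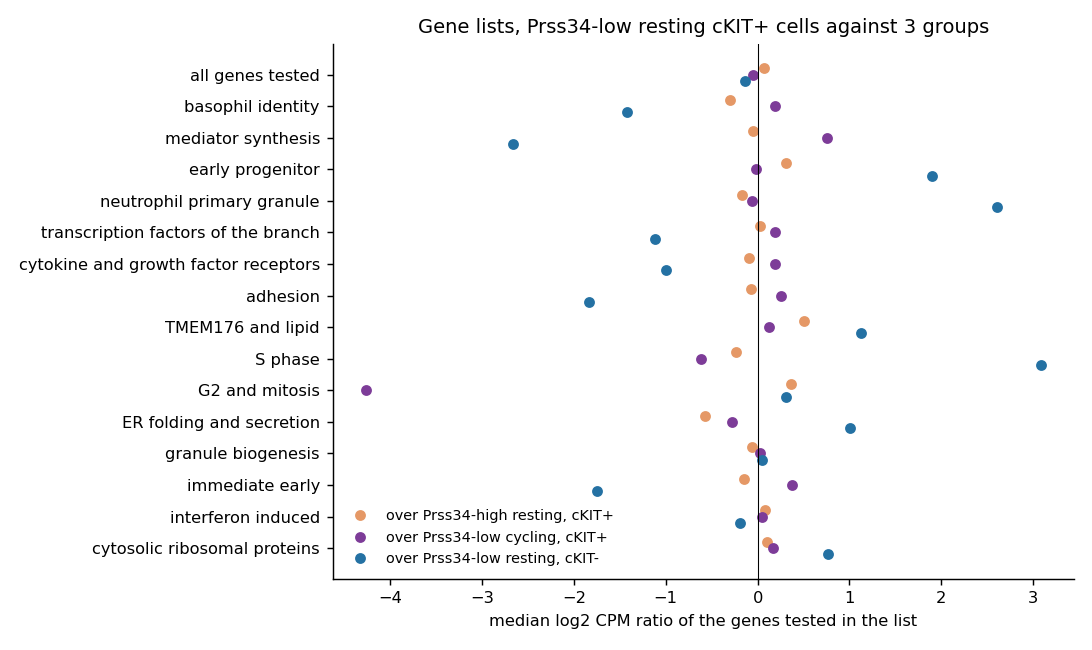
Median log2 CPM ratio of the tested genes of each list, Prss34-low resting cKIT+ cells over each of 3 groups, the gate genes left out. Over the cKIT- cells the early progenitor list lay at 1.90, the S phase list at 3.08 and the mediator list at -2.66, beside -0.14 for all genes tested, while over the Prss34-high cells the endoplasmic reticulum list lay at -0.58. Lists include genes under 20 CPM in a group, whose direction was fixed by the level in the other.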

How the data were processed

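The counts were deposited by the authors as raw UMI counts per gene and cell for 31053 genes, made with Cell Ranger 3.0.2 on mm10 per the labels. The labels name version 2 of the 10x kit and the methods also version 3. No other cell filter than the gates was applied, no doublet caller was run, and reference groups were Elane-high cells (Elane and Prtn3 at least 0.5%, basophil genes under 0.5%) and haemoglobin-high cells (haemoglobin genes at least 1%, basophil genes under 0.5%). UMIs were pooled per group and scaled to CPM in Python 3.11.15 (numpy 2.4.6, scipy 1.17.1). A gene was tested with at least 20 CPM in either group and counted past 2-fold in CPM, without the 13 gate genes. A gene under 20 CPM in one group was thus tested only through its level in the other, which fixes its direction. Intervals (95%) were exact Poisson for CPM, exact binomial for ratios and Clopper-Pearson for shares. Named genes were those of the gene lists, the 10 with the largest ratio in each direction among genes of at least 50 CPM, and the 10 most abundant. The counting was tested on simulated data. The cells and lists were chosen with earlier results of these data known. Gene coordinates come from GENCODE release M21 (GRCm38). Alternatives used other gates, weights, scalings (edgeR 4.0.16 for TMM factors) and filters.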

Additional observations from a re-analysis of the deposited data

How the results depend on the processing

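The 491 cells became 327 with basophil genes at 1% or more. Against the Prss34-high cells (5 genes higher, 23 lower), the genes higher were 3 with that gate, 8 at a Prss34 limit of 0.5% (14 lower), 10 with no Mki67 or Top2a UMI, 13 without the deepest 10% of cells, 9 with equal weight per cell (14 lower), 70 at 2000 UMIs per cell (51 lower), 3 with TMM scaling, 0 at 100 CPM or more (7 lower) and 265 with 10 UMIs or more in place of the CPM limit (244 lower). Without the 31 chemokine-high or S100-high cells, chosen after seeing the data and left out of the 491 cells only, 40 were lower. Against the cycling cells (25 higher, 235 lower), 51 were higher with equal weight, 145 at 2000 UMIs, 12 without the 31 cells, 6 at 100 CPM (65 lower) and 330 at 10 UMIs (706 lower). Against the cKIT- cells (963 higher, 1133 lower) the counts were 261 and 476 at 100 CPM and 2566 and 1738 at 10 UMIs. The remaining 65 counts stayed within 1.5 times. Cdh1 over the Prss34-high cells went from 0.84 to 1.07 at 2000 UMIs. Kit was at 0 in the cKIT- cells under 2 alternatives, which gave no ratio. No paired analysis was possible because each condition had 1 library. Depth limits the low genes: 3 UMIs over the 491 cells are 0.570 CPM.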

Other observations

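Gene groups outside the comparisons above were mixed. Ifitm1, an interferon-induced membrane protein gene, was the most abundant gene of the interferon list in the Prss34-low resting cKIT+ cells, at 2554 CPM, against 1800 in the Prss34-high cells, 1776 in the cycling cells and 5724 in the cKIT- cells. The immediate early list was lower than in the cKIT- cells for 7 of 10 tested genes, with Zfp36, Egr1 and Junb among them, and 0 were higher, beside 18.8% lower and 16.0% higher over all genes tested in that comparison. Zfp36 and Egr1 were under 20 CPM in the cKIT+ cells, so their direction was fixed. Of the 4 survival genes tested there, Bcl2 was past 2-fold higher than in the cKIT- cells and Mcl1 and Pim1 lower. Cdk6, a G1 kinase, stood at 428.1 CPM against 50.9 in the cKIT- cells, while Btg1, Btg2, Ccng2 and 3 others of the 9 cell cycle exit genes tested were past 2-fold lower. Ccng2 was under 20 CPM in the cKIT+ cells, so its direction was fixed. Of the 15 granule biogenesis genes tested against the cKIT- cells, 1, Ctsd, passed 2-fold, being lower, beside 34.7% of all genes past 2-fold either way.

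Cytosolic ribosomal protein genes lay on the higher side in 75 of 78 against the cKIT- cells, as did 2683 of the 6034 genes tested, with a median log2 ratio of 0.76 beside -0.14. Against the Prss34-high cells their median log2 ratio was 0.10, close to the 0.07 of all genes tested, which TMM scaling moved to -0.02. At 2000 UMIs per cell, the median number of genes detected was 942 in the Prss34-low resting cKIT+ cells, 918 in the Prss34-high cells, 990 in the cycling cells and 1016 in the cKIT- cells.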
